A study of Mus musculus with 3 samples.

Results

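The kinesin motor genes were described in 3 RNA-seq libraries of sorted mouse pre-B cells. The members were the protein-coding genes whose symbol begins with Kif or Kifc followed by a digit, and 41 of the 26286 genes in the count table met this rule. The rule uses the name and no measured value, although the family was picked for description with earlier results of these data known. Cenpe, a mitotic kinesin with another kind of name, was kept as a partner gene.

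The 3 libraries form 1 group, labelled normal pre-B. The donor mice were bitransgenic for CAG-rtTA3, a doxycycline-dependent activator behind the CAG promoter, and for TRE-GFP-shLuc.1309, in which GFP marks cells that express a hairpin against luciferase, a gene mice lack. After 3 days of doxycycline, bone marrow cells that were GFP+ B220+ IgM- Kit- CD25+ were sorted. All 3 libraries therefore carry the induced hairpin, and no untreated group is set against them. The labels used here state no age, sex or strain, and nothing in them says whether each library came from a separate mouse, so part of the spread between libraries may be technical. Replicate 3 was processed with the sequencer software CASAVA 1.8.0 and the others with 1.8.2.

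Kinesins are ATP-driven motors that move along microtubules or act on their ends. The mitotic members build the spindle, move and align chromosomes and complete cell division, and their transcripts rise as cells approach mitosis. The transport members carry vesicles, organelles and ciliary cargo in cells at any stage. Pre-B cells pass from a dividing to a resting stage, so a sorted pre-B population can hold both dividing and resting cells.

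Total counts ranged from 12021576 to 32086649, with replicate 3 the deepest. Xist had 22609 counts in replicate 1 against 94 in replicate 2 and 70 in replicate 3, and the Y-linked Ddx3y had 1, 1950 and 4881, so replicate 1 stood apart in its sex-linked genes and did not come from the same mouse as the others. Whether replicates 2 and 3 came from separate mice is not known. The pre-B markers Cd79a, Cd79b, Pax5, Ebf1, Il2ra, Ptprc, Rag1, Vpreb3 and Ighm each exceeded 10 RPKM in every library. RPKM is the read count scaled by gene length and library total. Among markers of other cells, 1 of 10 T and NK cell genes, 3 of 10 erythroid genes, 6 of 10 monocyte and macrophage genes and all 10 neutrophil genes reached 1 RPKM in every library. Each of these marker genes had at least 1 count over the 3 libraries. Summed RPKM of the lists ranged between libraries from 6.33 to 7.02 for T and NK cell genes, from 115 to 126 for erythroid genes, from 190 to 270.0 for monocyte genes and from 1318 to 2337 for neutrophil genes.

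Mitotic members made up most of the kinesin transcripts. Of the 41 genes, 27 reached 1 RPKM in every library, 17 reached 10 RPKM, and 7 had no counts at all. Among all genes listed, 42.4% reached 1 RPKM in every library and 33.7% had no counts. The mitotic list, 13 genes, took 70.9 ± 3.25% (SD, n = 3) of the summed kinesin RPKM, against 12.3 ± 1.35% for the 15 transport genes, 11.7 ± 2.10% for 5 microtubule regulators and non-motile members, and 1.23 ± 0.090% for 6 members tied to cilia or Hedgehog signalling. The remaining 2 genes, Kifc5b and Kif12, were put in no role and took 3.86 ± 0.25%. By raw counts the kinesins took 0.355%, 0.322% and 0.395% of replicates 1, 2 and 3, and the mitotic members took 60.2%, 54.4% and 62.6% of those kinesin counts. The mitotic share of kinesin RPKM was lowest in replicate 2, at 67.2%, and highest in replicate 3, at 73.4%. In bulk RNA, fewer dividing cells and less RNA per dividing cell cannot be told apart.

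**Figure D1:**
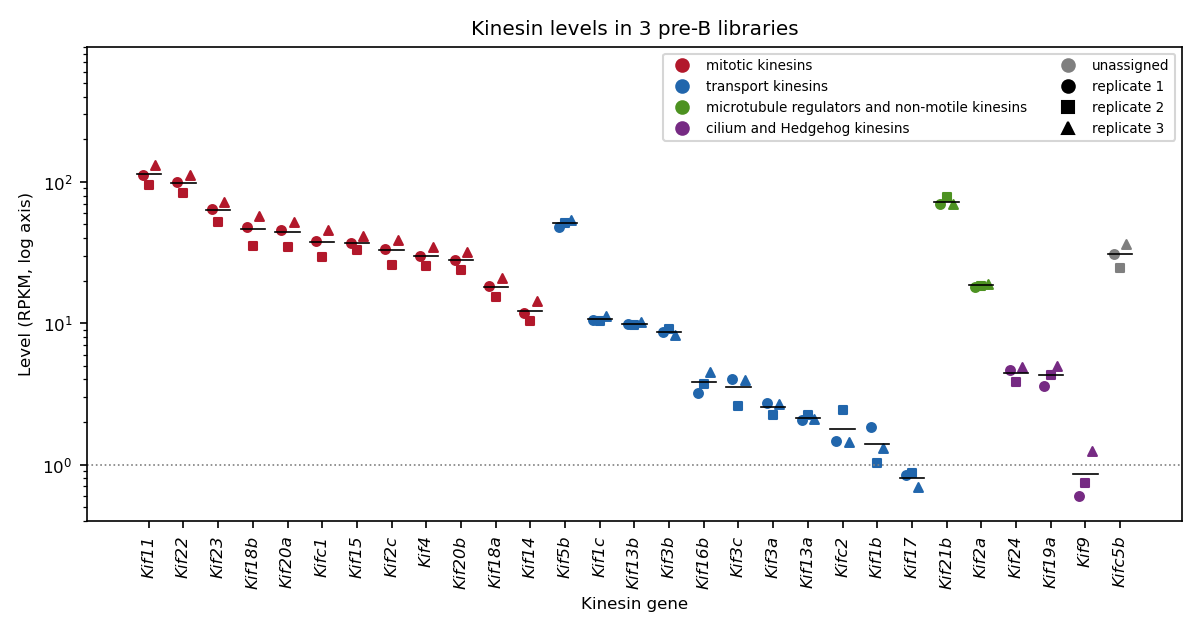
RPKM on a log axis of the 29 kinesin genes that passed the filter on low counts, coloured by role, with 1 symbol per library and a black bar at the mean. Mitotic members run from 113 RPKM for Kif11 to 12.2 RPKM for Kif14, whereas among transport members Kif5b stands alone above 12 RPKM; the dotted line marks 1 RPKM.

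The spindle motors came first. Kif11, which slides the antiparallel microtubules of the spindle apart, had the highest level of any kinesin, at 112.7, 94.6 and 132.5 RPKM in replicates 1, 2 and 3, or 113 ± 19.0 RPKM. Its mean exceeded those of 96.6% of the 17423 genes with a count. Kif15, a second motor that helps keep spindle poles apart, stood at 36.7, 32.8 and 41.3 RPKM, and the minus-end-directed Kifc1, which focuses poles, at 38.2, 29.3 and 45.4 RPKM. In each of these 3 genes replicate 3 was highest and replicate 2 lowest. Across the libraries the ratio of Kif15 to Kif11 lay between 0.311 and 0.346, and that of Kifc1 to Kif11 between 0.309 and 0.343.

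The chromosome motors covered a wider range. Kif22, which binds chromosome arms and pushes them outward, was the second highest member, at 83.6 RPKM in replicate 2 and 112.7 RPKM in replicate 3 with replicate 1 between them, from 2564, 2068 and 7482 counts in replicates 1, 2 and 3. Its range overlapped that of Kif11 although Kif11 was above it in each library. Kif4, the chromokinesin that works with the crosslinker Prc1, stood at 30.1, 25.6 and 34.6 RPKM. Kif18a and Kif18b both act at microtubule plus ends, and they differed in level: Kif18a stood at 18.5, 15.3 and 20.8 RPKM and Kif18b at 47.7, 35.2 and 57.4 RPKM. The ratio of Kif18b to Kif18a was 2.55 ± 0.23 (SD, n = 3) and ran from 2.30 to 2.76.

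The depolymerases Kif2a, Kif2b and Kif2c remove tubulin from microtubule ends. Kif2c, which corrects faulty kinetochore attachments, stood at 33.7, 25.8 and 38.9 RPKM. Kif2b had no counts in any library, and Kif2c was at least 234-fold higher, taking 3 counts in each library as the limit for Kif2b. Kif2a, which also acts outside mitosis and was counted among the regulators, stood at 18.1, 18.5 and 19.1 RPKM, a spread of 2.67% as coefficient of variation (SD divided by mean) against 20.0% for Kif2c. The groups of values did not overlap, and the ratio of Kif2c to Kif2a ran from 1.397 in replicate 2 to 2.04 in replicate 3.

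The cytokinesis motors were all present. Kif23, the motor of centralspindlin, stood at 64.8, 52.1 and 72.6 RPKM, and its complex partner Racgap1 at 84.9, 71.8 and 99.7 RPKM. Kif20a, which brings regulators to the central spindle, stood at 45.6, 34.9 and 52.4 RPKM, and the related Kif20b at 28.2, 23.9 and 31.7 RPKM. Kif14, which binds the citron kinase Cit at the midbody, was the lowest mitotic member with counts, at 11.8, 10.3 and 14.4 RPKM. Replicate 2 was the lowest and replicate 3 the highest library for each of these 5 genes as well. Without a stated strand setting, reads of Kif20a and of Cdc23 on the other strand cannot be told apart where they overlap, over 29.3% of the annotated exon bases of Kif20a, and the same holds for Kif4 and Pdzd11 over 15.1%.

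The promoters of the mitotic members were read from RefSeq (build GRCm38.p6), in windows of 250 bases before to 50 after each annotated start. Of the 41 members, 33 had a window, 37 windows in all. No window was available for the mitotic Kif20a, for Kif19a and Kif21b, or for the transport members Kif5a, Kif5b, Kif13b, Kifc2 and Kifc3. The highest transport member, Kif5b, was therefore not examined. The cell cycle genes homology region (CHR) is a short element through which MuvB complexes repress cell cycle genes in resting cells and activate them before mitosis, and it often lies with CCAAT boxes, which NF-Y binds. CHR was searched as TTTGAA or TTCGAA, and the CCAAT box as CCAAT, on both strands. The palindrome TTCGAA was counted once, and in no kinesin window did a CHR match share a base with a CCAAT match (0 of 24 pairs). A CHR match stood in the windows of 10 of 12 mitotic members, against 1 of 10 transport members and 19.2% of all 32851 windows. The CHR stretches nearest the start are printed for these 10 mitotic members, 30 bases each along the gene strand with every CHR match in capitals. Each stretch was placed on a match, so the letters they share follow from the search.
Kif11 (chr19:37376351-37376380, + strand): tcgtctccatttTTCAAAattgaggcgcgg
Kif15 (chr9:122951050-122951079, + strand): tggggcgccaaaTTCAAAtctgcggccatc
Kif22 (chr7:127042420-127042449, - strand): gggccccggtaaTTCAAAagagagaagcgg
Kifc1 (chr17:33890615-33890644, - strand): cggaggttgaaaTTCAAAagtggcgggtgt
Kif23 (chr9:61946780-61946809, - strand): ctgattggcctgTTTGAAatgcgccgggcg
Kif18b (chr11:102925104-102925133, - strand): cggaccggctagTTTGAAcgcgccgcgccg
Kif20b (chr19:34922353-34922382, + strand): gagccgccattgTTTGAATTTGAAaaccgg
Kif4 (chrX:100626072-100626101, + strand): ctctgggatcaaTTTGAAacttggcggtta
Kif2c (chr4:117178858-117178887, - strand): ccaggctgctctTTCAAAcctgagtaatgc
Kif14 (chr1:136467608-136467637, + strand): ggaggtcctgtcTTTGAAgtctgcagtgtc

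All 10 matches were of the TTTGAA form, 5 of them on the opposite strand, where they read TTCAAA. In the first 8 of the printed genes the match began between base -19 and base 20 of the annotated start, counting the base before the start as -1 and the start itself as 1, while that of Kif2c began at -103 and that of Kif14 at -228. In a window from -60 to 30, chosen after these positions were seen, 8 of 12 mitotic members and 5.19% of all windows had a match. The mitotic members with a window and no match were Kif18a and Kif2b, of which the second had no counts. Among transport members the match was in 1 of the 2 windows of Kif1a, a gene with 1 count in all. Matches were also present in Kif24, Kif27, Kif26b and Kifc5b, and Kif27 and Kif26b had no counts. A match describes letters and does not show binding.

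CCAAT boxes were found in 8 of 12 mitotic members, against 3 of 10 transport members and 37.4% of all windows. Both elements stood together in 7 of 12 mitotic members and in no transport window, against 7.52% of all windows. They also stood together in Kif24, Kif27, Kif26b and Kifc5b, of which Kif27 and Kif26b had no counts. The 120 bases before the start are printed for mitotic genes with 1 box (Kif11 and Kif22) or 2 (Kif18b and Kifc1) in that stretch and for Kif1c, the transport gene with the second highest level, which has neither element there, with CHR and CCAAT matches in capitals.
Kif11 (chr19:37376262-37376381, + strand): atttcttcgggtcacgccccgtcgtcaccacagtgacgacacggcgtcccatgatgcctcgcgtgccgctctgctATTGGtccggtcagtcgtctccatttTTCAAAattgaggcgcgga
Kif22 (chr7:127042421-127042540, - strand): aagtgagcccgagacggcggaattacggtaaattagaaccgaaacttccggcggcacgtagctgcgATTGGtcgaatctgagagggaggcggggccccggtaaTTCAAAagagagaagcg
Kif18b (chr11:102925125-102925244, - strand): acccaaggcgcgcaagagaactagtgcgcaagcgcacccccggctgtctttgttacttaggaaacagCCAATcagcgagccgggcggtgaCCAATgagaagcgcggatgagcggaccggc
Kifc1 (chr17:33890634-33890753, - strand): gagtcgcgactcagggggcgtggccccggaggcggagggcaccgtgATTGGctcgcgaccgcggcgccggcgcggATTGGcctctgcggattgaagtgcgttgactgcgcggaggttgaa
Kif1c (chr11:70700428-70700547, + strand): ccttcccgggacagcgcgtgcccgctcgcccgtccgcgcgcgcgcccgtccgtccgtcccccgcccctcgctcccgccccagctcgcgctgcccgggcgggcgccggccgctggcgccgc

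In Kif11 the box began at -45 and the CHR match at -19, and in Kif22 at -54 and -17. In Kif18b the boxes began at -53 and -30, and in Kifc1 at -74 and -45, with the CHR match of each just after the start. E2F elements, which bind factors of the DNA synthesis phase, were searched as TTTCCCGC, TTTCGCGC, TTTGCCGC or TTTGGCGC. They were found in 2 of 12 mitotic members, Kif15 and Kif18a, in no transport window and in 2.26% of all windows.

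**Figure D2:**
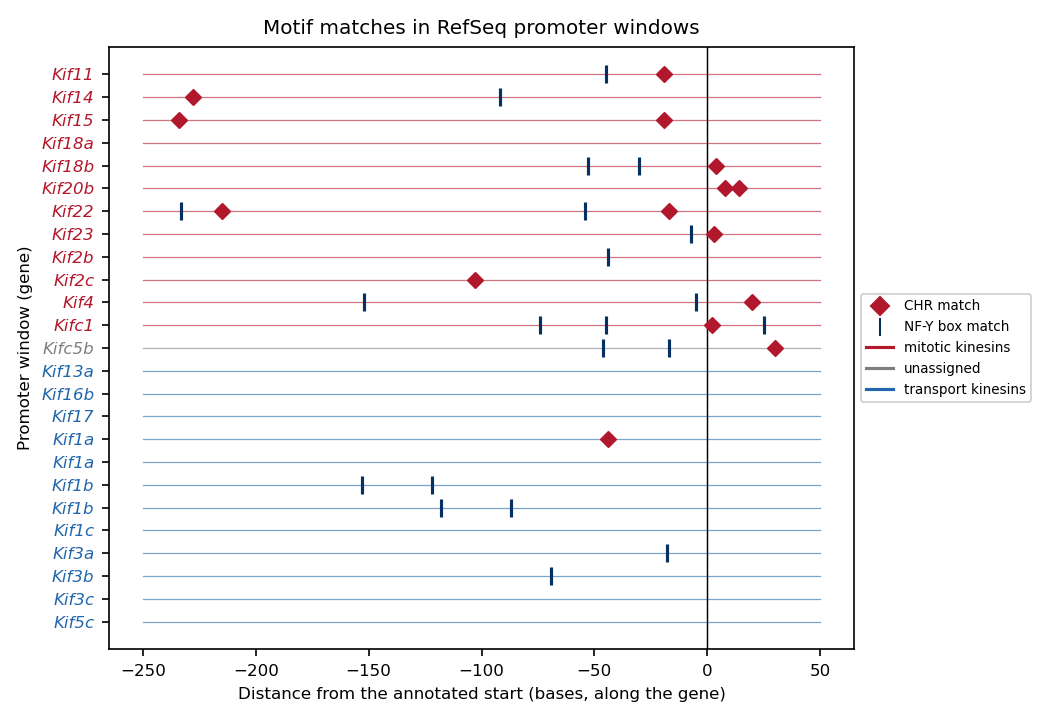
Matches to the CHR (diamonds) and to the NF-Y box, CCAAT (bars), in promoter windows of mitotic, transport and unassigned kinesins with a window, by distance in bases from the annotated start. Of the mitotic members 8 of 12 have a CHR match between -60 and 30, and of the transport members 1 window of Kif1a does.

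The transport members were mostly low, with 1 exception. Kif5b, the ubiquitous heavy chain of conventional kinesin, stood at 48.1, 50.8 and 53.5 RPKM, or 50.8 ± 2.71 RPKM. The neuronal heavy chains Kif5a and Kif5c had 16 and 3 counts over the 3 libraries, levels of 0.0385 ± 0.0246 and 0.0070 ± 0.0062 RPKM. Of the light chains that couple these motors to cargo, Klc1 stood at 46.3, 40.5 and 42.2 RPKM, Klc4 at 18.2, 16.03 and 16.9 RPKM, Klc2 at 10.6, 12.5 and 11.2 RPKM and Klc3 at 4.38, 4.82 and 4.43 RPKM. The mitochondrial adaptor Trak1 stood at 47.2, 49.9 and 56.5 RPKM, and its ratio to Kif5b lay between 0.981 and 1.06.

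The heterotrimeric motor of cilia and vesicles pairs Kif3a with Kif3b or with Kif3c, together with the accessory subunit Kifap3. Kif3b stood at 8.62, 9.14 and 8.27 RPKM, Kif3a at 2.74, 2.24 and 2.69 RPKM, Kif3c at 4.06, 2.61 and 3.998 RPKM and Kifap3 at 2.51, 2.39 and 1.90 RPKM. Kif3b was the highest subunit in every library, 3.44 ± 0.56 times Kif3a and 3.87 ± 0.46 times Kifap3 (SD, n = 3). Kif3c was lowest in replicate 2, and an antisense gene, 1110002L01Rik, overlaps 35.3% of its exon bases, so its level is uncertain. Kif17, another ciliary and dendritic motor of this family, stood at 0.844, 0.875 and 0.697 RPKM.

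Vesicle motors of the Kif1 and Kif13 groups differed among themselves. Kif1c, which carries vesicles in many cell types, stood at 10.6, 10.4 and 11.2 RPKM and Kif1b, which carries mitochondria and synaptic vesicle precursors, at 1.84, 1.03 and 1.30 RPKM. The neuronal Kif1a had 1 count over the 3 libraries. Kif13b was 4.67 ± 0.31 times as high as Kif13a, at 9.91, 9.71 and 10.2 RPKM against 2.06, 2.25 and 2.10 RPKM. The early endosome motor Kif16b stood at 3.21, 3.69 and 4.54 RPKM. The minus-end-directed Kifc2 and Kifc3 stood at 1.46, 2.42 and 1.44 RPKM and at 0.128, 0.111 and 0.240 RPKM. Of the transport members only Kif1c and Kif5b were at 10 RPKM or above in every library. Among all kinesins, Kif1b was nearest above the minimum of 1 RPKM in every library, and Kif17 and the ciliary Kif9 were nearest below.

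Of the other roles, Kif21b stood out by level. Kif21b, a motor that limits microtubule growth and is known in lymphocytes, stood at 69.7, 78.2 and 69.6 RPKM, the third highest mean of all kinesins, above 93.7% of the genes with a count. Its relative Kif21a had no counts, and Kif21b was at least 1864-fold higher, taking 3 counts in each library as the limit for Kif21a. Kif21b was highest in replicate 2, the library in which the mitotic members were lowest, so that its ratio to Kif11 ran from 0.525 in replicate 3 to 0.827 in replicate 2. The non-motile Kif26a and Kif26b had no counts.

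Among cilium and Hedgehog members, Kif24, which acts at centrioles and restrains cilia, stood at 4.67, 3.86 and 4.88 RPKM, and Kif19a, which trims ciliary tips, at 3.61, 4.33 and 4.997 RPKM. Kif9, a motor of motile cilia, stood at 0.600, 0.741 and 1.24 RPKM, from 26, 31 and 139 counts. The Hedgehog regulator Kif7 had 16 counts in all, and Kif6 and Kif27 had none. For the 7 kinesins with no counts (Kif2b, Kif6, Kif12, Kif21a, Kif26a, Kif26b and Kif27), 3 counts in the shallowest library allow levels of up to 0.0338 RPKM for the longest gene, Kif26b, and up to 0.111 RPKM for the shortest, Kif12. These limits cover counting error only.

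Kifc5b, a near-copy of Kifc1, stood at 30.8, 24.7 and 36.5 RPKM, and the ratio of Kifc1 to it lay between 1.183 and 1.245. The rows of these genes cannot be fully separated. Of the words of 31 bases in Kifc1 transcripts, 53.2% also occur in Kifc5b, and the labels used here do not say how reads of both were counted. In the other members with any shared word, at most 6.56% of words were shared with other genes.
Kifc5b (chr17:26917108-26917137, + strand): cggaggttgaaaTTCAAAagtgactggtgt
The CHR stretch of Kifc5b, printed for comparison with that of Kifc1 above, begins with the same 22 bases and differs from it at 2 of 30. The pseudogenes Kifc5c-ps and Kif4-ps, which are not members, stood at 3.33 ± 0.66 and 0.283 ± 0.066 RPKM.

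Mitotic members were then set against transport members within each library. The median of log2(RPKM + 0.5) was 5.22, 4.90 and 5.38 for the 13 mitotic genes and 1.36, 1.46 and 1.38 for the 15 transport genes in replicates 1, 2 and 3. The difference was 3.86, 3.44 and 4.01, or 3.77 ± 0.30 (SD, n = 3), which is 13.6-fold, and over all genes with a count the median level was 2.57. No p-value is given for a score over chosen members. All but Kif2b of the mitotic list, 12 of 13, reached 10 RPKM in every library, against 2 of 15 transport genes. The lists overlapped: Kif5b exceeded 9 of the 12 mitotic members with counts by its mean. Without gene length (CPM, counts scaled by library total only) the difference was 3.28, and over the 12 mitotic and 11 transport genes past the filter it was 3.33.

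**Figure D3:**
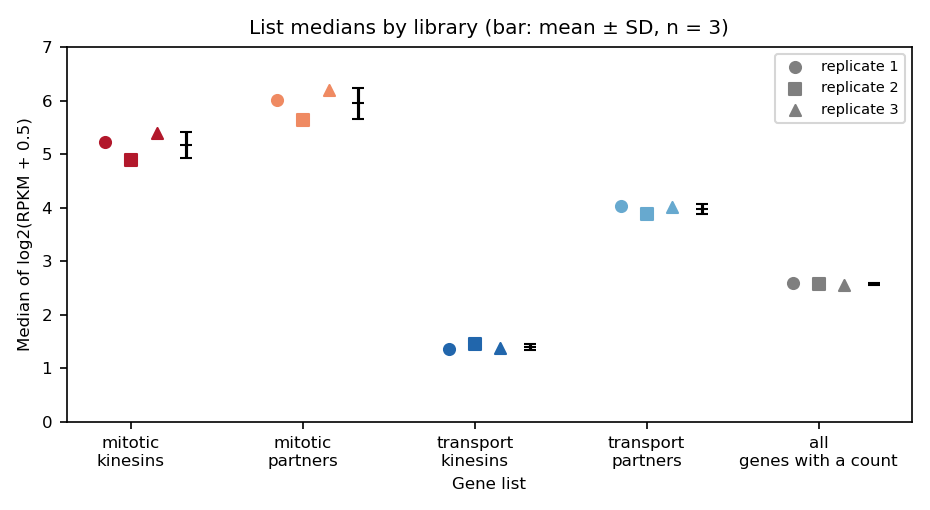
Median of log2(RPKM + 0.5) of each list in each library, with the mean and SD over the 3 libraries as a bar. Mitotic kinesins lie at 5.17 ± 0.25 and transport kinesins at 1.40 ± 0.05, while their partner lists lie at 5.95 ± 0.29 and 3.97 ± 0.09.

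The partner genes of both classes were measured beside them. All 14 mitotic partners reached 10 RPKM in every library, with Incenp of the chromosomal passenger complex highest, at 111, 89.3 and 126 RPKM. Ratios of motors to partners varied to different degrees between libraries. The ratio of Kif23 to Racgap1 lay between 0.725 and 0.762, that of Kif4 to Prc1 between 0.418 and 0.453, that of Kif11 to Tpx2, which targets it to the spindle, between 1.56 and 1.69, and that of Kif20a to its docking kinase Plk1 between 0.805 and 0.810. The widest of these ratios was that of Kif15 to its spindle partner Hmmr, between 0.864 and 1.03, a coefficient of variation (SD divided by mean) of 10.1% against 11.5% for Kif15 itself, and Kif14 to Cit ran from 0.831 to 0.916. The kinetochore motor Cenpe stood at 36.5, 30.8 and 43.6 RPKM, and its ratio to Kif11 lay between 0.324 and 0.329. These ratios describe bulk RNA of a sorted population and not proteins.

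Of the 14 transport partners, 13 reached 1 RPKM in every library, and the scaffold Mapk8ip1 did not, with 9 counts in all. The median of log2(RPKM + 0.5) was 3.97 ± 0.09 for these partners against 1.40 ± 0.05 for the transport motors, and Klc1, Trak1, Trak2, Rhot2 and Arl8b were above 28 RPKM in every library. Kifbp, which binds and blocks several motors, stood at 13.8, 11.98 and 14.3 RPKM.

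The spread between the libraries was then compared with counting noise. For each of the 12147 genes past the filter, a chi-square test asked whether the counts varied more than Poisson sampling, with Benjamini-Hochberg adjustment. Of the 29 kinesins past the filter, 22 differed between libraries by more than counting noise, and 54.6% of all genes tested did. All 12 mitotic members past the filter passed, as did Kifc5b, 3 of 3 cilium members, 1 of 2 regulators (Kif21b) and 5 of 11 transport members (Kif1b, Kif3c, Kif5b, Kif16b and Kifc2). The adjusted p of Kif11 was 1.7e-115 and that of Kif18a 3.2e-10, while Kif13a (0.720), Kif13b (0.542) and Kif2a (0.415) did not pass. The transport count depended on single libraries: without replicate 2 or without replicate 3 it was 3, while the mitotic count stayed at 12. Higher counts make smaller differences pass, so the coefficient of variation is the better guide to size. Its median was 16.6% for mitotic members (range 11.5% to 23.8%), 10.7% for transport members (2.68% to 31.4%) and 9.77% for all genes tested. The ranges overlapped, with Kifc2 at 31.4%, Kif1b at 29.5% and Kif3c at 23.1%, and the difference between the classes was not tested.

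All 12 mitotic members past the filter stood in 1 order, with replicate 3 above replicate 1 and replicate 1 above replicate 2, an order that 21.9% of all genes past the filter had. Of the transport members past the filter, 2 of 11 had it, Kif1c and Kif13b, as had Kifc5b and Kif24. The mitotic members differed between replicates 3 and 2 by a median ratio of 1.396, from 1.26 for Kif15 to 1.63 for Kif18b, the mitotic partners by 1.42 (1.33 to 1.51), the transport members by 1.05 (0.598 to 1.53), the transport partners by 0.980 and all genes by 0.997. The 14 mitotic partners all had the same order. These genes belong to 1 cell cycle program and are not independent observations. Divided by the median level of the mitotic partners in each library, the mitotic kinesins varied by 4.66% (median coefficient of variation, range 0.619% to 9.18%) in place of 16.6%.

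Other measures also differed between these libraries. Replicate 3 had the most counts, and the summed neutrophil markers stood at 1318, 1583 and 2337 RPKM in replicates 1, 2 and 3, highest in replicate 3 as the mitotic kinesins were, but lowest in replicate 1. Of the neutrophil sum, S100a9 gave 568, 702 and 1052 RPKM, and 7 of the 10 neutrophil markers were highest in replicate 3. The summed monocyte markers ran in the same direction, at 190, 223 and 270.0 RPKM, of which Lyz2 alone gave 155.7, 186.3 and 227.5 RPKM. Of the 9 monocyte markers past the filter, 7 were highest in replicate 3, against 4265 of all 12147 genes past the filter. The 9 pre-B markers named above summed to 11529.9, 11169 and 10141 RPKM, of which Ighm alone gave 7234, 6774 and 6239 RPKM. Vpreb3 and Ighm were highest in replicate 1, whereas Cd79a, Cd79b, Pax5, Ebf1, Il2ra, Ptprc and Rag1 were highest in replicate 2. Of these 9, 8 had a log2 difference of replicate 3 from the others below 0, as had 6228 of the 12147 genes past the filter. With replicate 3 thinned to the smallest total, 12 of 12 mitotic members still passed the Poisson test, and 20 of 29 kinesins in all, with 46.7% of all genes passing. The part of the neutrophil, monocyte and pre-B transcripts in the order of the mitotic kinesins was not tested.

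**Figure D4:**
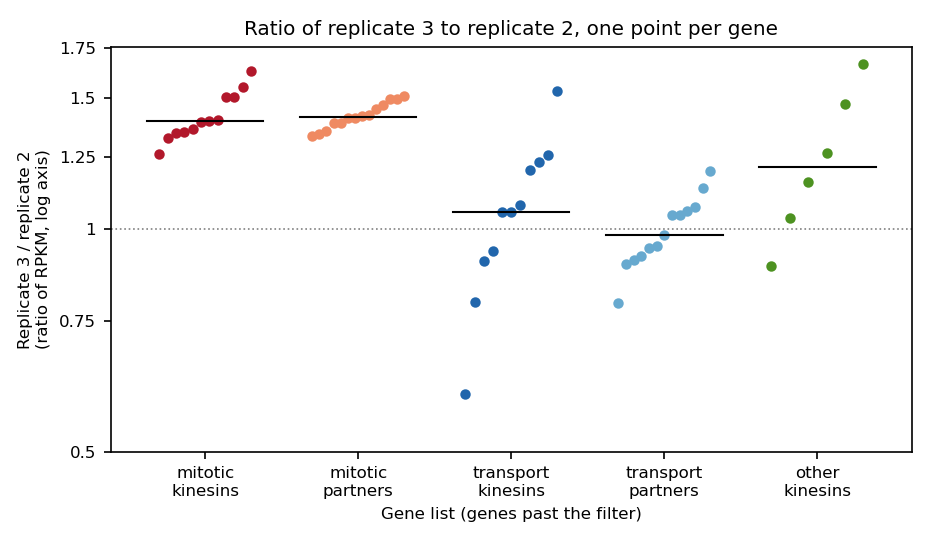
Ratio of RPKM in replicate 3 to replicate 2 on a log axis, 1 point per gene past the filter, with a black bar at the median of each list. All mitotic kinesins and all mitotic partners lie above 1, with medians of 1.396 and 1.42, while transport kinesins and their partners lie on both sides of 1.

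The difference of replicate 3 from replicates 1 and 2, which is also the split by CASAVA version, was tested with edgeR. This sets 1 library against 2, so it compares these libraries. All 12 mitotic members had a log2 difference above 0, from 0.25 ± 0.13 (SE) for Kif15 to 0.47 ± 0.18 for Kif18b, with a median of 0.33, whereas 48.7% of all genes past the filter had one above 0. Transport members lay on both sides, 6 above and 5 below 0, from -0.42 ± 0.34 for Kifc2 to 0.397 ± 0.18 for Kif16b, with a median of 0.06. None of the 29 kinesins passed the edgeR quasi-likelihood test after Benjamini-Hochberg adjustment, and 0.0741% of the 12147 genes did (0.0576% higher and 0.0165% lower in replicate 3). The smallest adjusted p among kinesins was 0.418, for Kif14 with a log2 difference of 0.38 ± 0.13. At an unadjusted p under 0.05 there were 8 of 29 kinesins in edgeR, against 9.62% of all genes, and 4 in DESeq2, against 3.77%. DESeq2 called 0 kinesins after adjustment too. The largest difference, 0.88 ± 0.30 for Kif9, rested on 196 counts.

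**Figure D5:**
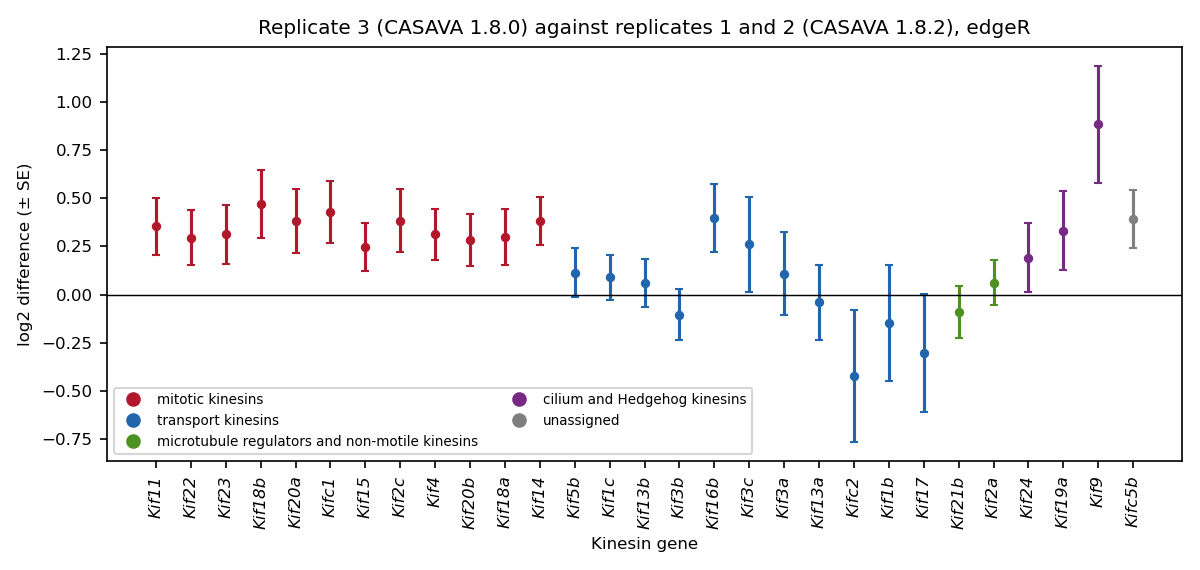
Log2 difference of replicate 3 from replicates 1 and 2 for each kinesin past the filter, as fitted by edgeR, with its SE as a bar. The mitotic members lie between 0.25 and 0.47, and transport members between -0.42 and 0.397.

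Spread was also set against genes of like abundance, in an intercept-only edgeR fit. Of the 29 kinesins 0 passed after Benjamini-Hochberg adjustment, against 0.0165% of all genes tested. At an unadjusted p under 0.05 there were 7 kinesins (5 mitotic members, Kifc5b and 1 transport member), against 5.3% of all genes. The smallest adjusted p was 0.857, for Kif18b, so the spread of single mitotic members was not separated from that of other genes of their abundance. A robust fit of the same model called 0 kinesins, with 6 at an unadjusted p under 0.05.

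The order of the levels was firm only in part. Among the 29 kinesins past the filter ordered by mean RPKM, 22 of the 28 neighbouring pairs had overlapping ranges over the libraries and 6 did not. The separated steps were Kif22 above Kif21b, Kif20b above Kif2a, Kif18a above Kif14, Kif1c above Kif13b, Kif13b above Kif3b and Kif3b above Kif24. Of the 28 neighbouring pairs, 16 had 1 order in every library, the 6 separated pairs among them.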

How the data were processed

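RNA from sorted pre-B cells was sequenced in 3 libraries. The deposited values are raw read counts per Entrez gene with a gene length in bases. They were made by the authors with featureCounts on the mm9 build and with CASAVA, per the submitters' processing notes. For the aligner, annotation, strand setting and treatment of reads shared by genes, the labels used here give nothing.

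Of 26286 identifiers, 24176 matched a RefSeq symbol, and all 117 list genes matched. The genome tables are of GRCm38, so their coordinates are given only with promoter sequences. Counts were scaled by TMM (factors 1.0003, 0.9969 and 1.0028 for replicates 1, 2 and 3) in edgeR 4.0.16 under R 4.3.3. RPKM used the deposited gene lengths. The filter (filterByExpr, minimum count 10, minimum total 15) kept 12147 genes, 29 of 41 kinesins among them. Because it needs its minimum in every library, it also drops genes nearly absent from 1 library, such as Ddx3y with 1, 1950 and 4881 counts. Such genes are missing from the shares of genes past the filter. Tests ran over all kept genes with Benjamini-Hochberg adjustment at 0.05: chi-square against Poisson counts, the quasi-dispersion F test (prior degrees of freedom 5.92), and glmQLFTest of replicate 3 against the others, with DESeq2 1.42.0 as an alternative. Spread between libraries, a biological coefficient of variation of 13.1%, includes any technical spread. Figures used matplotlib 3.10.9.

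On simulated data over 12299 genes, the test of 1 library against 2 recovered 99 of 100 genes changed 4-fold and 80 of 100 changed 2-fold, with 13 false calls. The Poisson test called 0 of 12334 genes without added spread, and the dispersion test recovered 145 of 200 genes with 0 false calls among 12286. Changes and spread were planted only in genes with a mean count above 100. The planted changes exceeded the log2 differences of the mitotic members, 0.25 to 0.47, and the planted spread was wider than theirs. Recovery of differences as small as those of the kinesins was therefore not simulated.

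The members, role, partner and marker lists, motifs and tests were chosen with earlier results of these data known. Every member and partner may be named, and of markers the summed level. 1 marker gene is not reported here.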

Additional observations from a re-analysis of the deposited data

How the results depend on the processing

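Kinesins at 1 RPKM or more numbered 27 under DESeq2 size factors, without scaling and without any 1 replicate, 29 with TPM or a minimum of 0.5 RPKM, and 25 with a minimum of 2 RPKM. The mitotic minus transport difference (log2) kept its sign under every alternative. It was 3.28 with CPM, 3.33 over members past the filter and 3.35 with the mean of members, and ran from 3.65 to 3.94 with 1 replicate left out. The number of kinesins past the Poisson test ran from 17 (without replicate 3) to 21 with 1 replicate left out, and all 12 mitotic members passed each time. Of all genes 43.3%, 32.9% and 25.7% passed without replicates 1, 2 and 3. Lost calls were Kif16b, Kif5b, Kif9, Kif24 and Kif19a without replicate 3, Kif21b, Kif3c, Kifc2 and Kif24 without replicate 2, Kif19a without replicate 1, and Kif24 and Kif19a with replicate 3 thinned. The cause was not tested. Both edgeR tests called 0 kinesins in each alternative run. The number of all genes called was 9 in edgeR against 36 in DESeq2 and 0 with all genes with a count for the CASAVA split. For the dispersion test it was 2 against 46 with all genes, 0 in the robust fit and 8 and 44 without replicates 1 and 2. Leaving out replicate 1 or 2 leaves 1 library against 1, with no test; the difference of Kif1b was then 0.33 or -0.50, and that of Kif18b 0.71 or 0.27. No paired analysis was possible because the 3 libraries form 1 group. Depth limits genes such as Kif9 (26 to 139 counts) and Kif7.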
